A study of Homo sapiens with 32 samples.

Results

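The human mitochondrial genome carries 37 genes: 13 for mRNAs, 2 for rRNAs and 22 for tRNAs. All 37 were found by their MT- symbols among the 58721 genes of the RNA-Seq and Subunit-Seq expression tables, and the 404 nuclear genes named as copies of them were kept out. The samples were HEK293T cells, an established human embryonic kidney line, given 600 nM thapsigargin (Tg) for 16 h or an equal volume of DMSO. Tg inhibits SERCA, which fills the endoplasmic reticulum (ER) with calcium, and so stresses that organelle, and the series sets out to describe eIF3d, the cap-binding subunit of a translation initiation factor, under such stress. RNA-Seq of polyadenylated RNA compared cells with wild-type eIF3d (WT) and cells with the S528D and S529D substitutions, described as phosphomimetic (DD), each in DMSO and in Tg. Subunit-Seq sequenced the RNA recovered with the released cap-binding domain of eIF3d after an anti-HA immunoprecipitation (IP), beside an input. Its cells had the genotype HA-eIF3d-TEV and were in DMSO or in Tg. The promoter behind each eIF3d, the state of the native gene and the number of clones are not given in the sources used here. Each of these 8 groups had 2 libraries, numbered 1 and 2, and nothing says whether the 2 came from separate cultures, so p-values measure only the spread between these libraries.

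Mitochondrial DNA is transcribed as long RNAs from both strands, and most of the mRNAs and both rRNAs are separated by tRNAs, which are cut out to free their neighbours. Most, though not all, of the mRNAs then receive short poly(A) tails in the organelle. The mRNAs carry no cap of the kind that cytoplasmic mRNAs have, and are translated by mitochondrial ribosomes built on the 2 rRNAs. Their 13 products are core subunits of respiratory chain complexes I, III and IV and of the ATP synthase, complex V, whose other subunits come from the nucleus.

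Values are RPKM, reads scaled to the length of the gene and the size of the library, which corrects for gene length and for library size. Whole reads were recovered from them, and a library held 4508483 to 10163214 reads (RNA-Seq) or 5102852 to 16860637 reads (Subunit-Seq). Input DMSO replicate 2 stood apart from the other Subunit-Seq libraries, with a median-ratio scaling factor of 0.291 against 0.654 to 1.85 in the other 7. In RNA-Seq the scaling factors ran from 0.765 to 1.19, and DD Tg replicate 2 differed most from its partner in the members, with 57.3% against 32.1% of reads in the 2 rRNAs. Of 6 markers chosen for HEK293T cells, VIM, KRT18 and NEFL were at 1 RPKM or more in all 16 libraries, KRT8 was at 0.221 to 8.45 RPKM and PAX2 reached at most 0.194 RPKM in RNA-Seq and 2.09 RPKM in Subunit-Seq. NEFM split the RNA-Seq libraries by replicate number, at 31.9 to 62.2 RPKM in the replicate 1 libraries and 0.0693 to 1.23 RPKM in the replicate 2 libraries, and in Subunit-Seq replicate 1 was likewise the higher in each group, over a range of 0.563 to 86.3 RPKM. What sets the replicate numbers apart was not tested. Of 8 markers of other cell types, 6 stayed under 1 RPKM in all 16 libraries, among them PTPRC and CD3E at 0. The others were HBA1, at up to 2.13 RPKM in RNA-Seq and 3.79 RPKM in Subunit-Seq, and EPCAM, at up to 0.937 and 1.66 RPKM. EIF3D itself was at 29.2 to 91.2 RPKM in RNA-Seq and at 37.6 to 257 RPKM in Subunit-Seq, which does not check the substitutions or the tag. In bulk RNA, fewer mitochondria and less RNA per mitochondrion cannot be told apart.

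Reads were found for 17 of the 37 genes: both rRNAs, all 13 mRNAs and 2 tRNAs. The other 20 tRNAs were at 0 in all 16 libraries, among 160086708 reads in all. A count of 0 allows up to 3 reads in a library, or between 1.78e-05% and 6.65e-05% of its reads; these limits and all intervals below cover counting error only. The 22 tRNA genes are 59 to 75 bases long. Mature tRNAs carry no poly(A) tail.

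The 2 tRNAs with reads were the first and the last gene on either side of the non-coding control region, MT-TF for phenylalanine (bases 577 to 647 of chromosome MT in RefSeq's GRCh38.p14) and MT-TP for proline (bases 15956 to 16023). Each of the 20 without reads lies at most 31 bases from a neighbouring gene on both sides. MT-TF had 0, 1 or 2 reads in each RNA-Seq library and passed the filter on low values there with a mean of 1.21 RPKM, so no difference is read from it. In Subunit-Seq it had 27 reads in IP DMSO replicate 1, 7 in IP Tg replicate 1, 2 in input Tg replicate 2 and 0 in the other 5 libraries. MT-TP had reads in every library, 31 to 541 in RNA-Seq and 37 to 1709 in Subunit-Seq. Per length it was at 167 and 238 RPKM in WT cells under DMSO, 394 and 237 RPKM in WT cells under Tg, 655 and 151 RPKM in DD cells under DMSO and 783 and 69.2 RPKM in DD cells under Tg.

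The 2 rRNAs held the largest part of the mitochondrial reads in RNA-Seq. They took 43.8% and 34.1% of library reads in WT cells under DMSO, 49.8% and 29.9% in WT cells under Tg, 42.2% and 25.4% in DD cells under DMSO and 32.1% and 57.3% in DD cells under Tg, with 95% Wilson intervals at most 0.0875 percentage points wide. The 4 groups overlapped, and within 3 of them replicate 1 had the higher share, while in DD Tg it was replicate 2. The 13 mRNAs together took 1.10% and 1.10% in WT cells under DMSO, 1.55% and 1.97% in WT cells under Tg, 1.79% and 1.65% in DD cells under DMSO and 2.31% and 1.46% in DD cells under Tg. The 2 WT DMSO libraries had the lowest mRNA shares of the 8.

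Because the rRNAs take up to 57.3% of a library, the mRNA share was also taken of the reads outside them. It was then 1.96% and 1.67% in WT cells under DMSO, 3.08% and 2.81% in WT cells under Tg, 3.09% and 2.22% in DD cells under DMSO and 3.40% and 3.42% in DD cells under Tg. The WT DMSO libraries remained the lowest, and the 2 DD Tg libraries, far apart in their rRNA share, were close to each other on this scale.

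In Subunit-Seq the balance between the classes differed between input and IP. The rRNAs took 4.64% and 20.4% of input reads under DMSO and 19.9% and 9.41% under Tg, against 0.398% and 0.705% of IP reads under DMSO and 0.409% and 0.286% under Tg. Every IP library was below every input library. The mRNAs took 1.13% and 6.89% of input reads under DMSO and 0.915% and 4.48% under Tg, and 0.905% and 4.01% of IP reads under DMSO and 1.26% and 1.45% under Tg, with input and IP overlapping. For each mRNA read there were 13.9 to 39.8 rRNA reads in RNA-Seq, 2.10 to 21.8 in the inputs and 0.176 to 0.440 in the IPs.

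**Figure D1:**
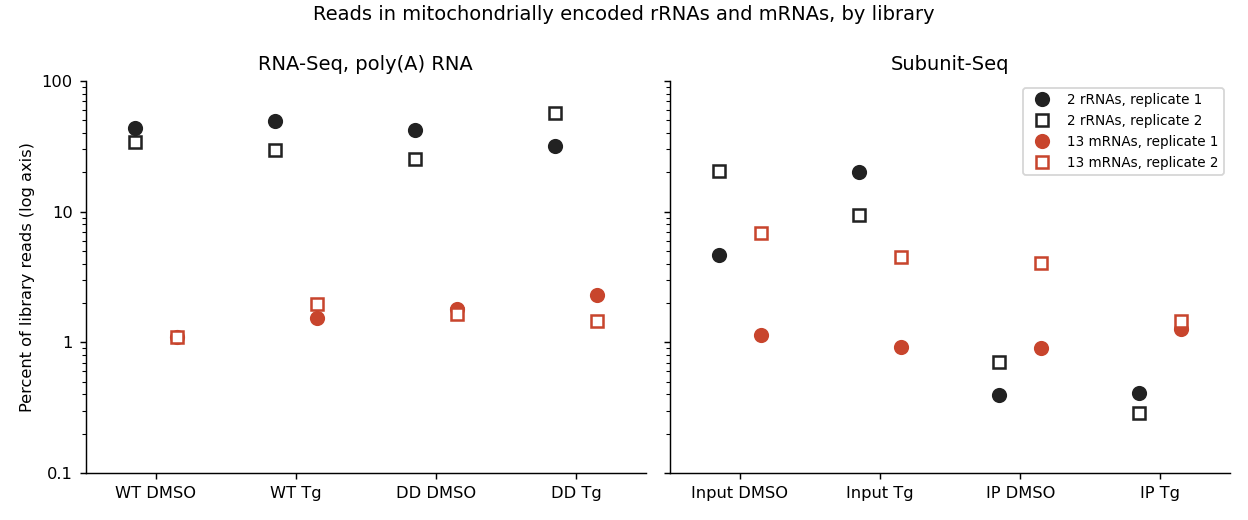
Percent of library reads (log axis) in the 2 rRNAs (black) and the 13 mRNAs (red) of the mitochondrial genome, for replicate 1 (filled circle) and replicate 2 (open square) of each RNA-Seq group (left) and Subunit-Seq group (right). The rRNAs lie between 25.4% and 57.3% in RNA-Seq and between 0.286% and 0.705% in the 4 IP libraries, where they fall below the mRNAs.

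MT-RNR1 (bases 648 to 1601 of chromosome MT) is the rRNA of the small and MT-RNR2 (bases 1671 to 3229) that of the large subunit of the mitochondrial ribosome. They were the 2 highest of all 58721 genes in 8 of 8 RNA-Seq libraries. MT-RNR1 was at 72695 and 95574 RPKM in WT cells under DMSO, 90711 and 50246 RPKM in WT cells under Tg, 81389.8 and 82419.5 RPKM in DD cells under DMSO and 52197 and 179321 RPKM in DD cells under Tg. DD Tg replicate 2 was the highest of the 8. MT-RNR2 was at 236252 and 159990.0 RPKM in WT cells under DMSO, 264169 and 160747 RPKM in WT cells under Tg, 221149 and 112551 RPKM in DD cells under DMSO and 173768 and 257696 RPKM in DD cells under Tg, above MT-RNR1 in each library. The ratio of MT-RNR2 to MT-RNR1 in RPKM was 3.25 and 1.67 in WT cells under DMSO, 2.91 and 3.20 in WT cells under Tg, 2.72 and 1.37 in DD cells under DMSO and 3.33 and 1.44 in DD cells under Tg, so that libraries of 1 group differed as much as the groups did.

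No difference in the rRNAs passed the test in RNA-Seq. The limma fit on log2(RPKM + 1), with Benjamini-Hochberg adjustment over 9637 genes, gave MT-RNR1 a log2 difference of -0.30 ± 0.60 (SE) for Tg against DMSO in WT cells and 0.24 ± 0.60 in DD cells. For MT-RNR2 the same differences were 0.08 ± 0.48 and 0.42 ± 0.48. Between DD and WT cells MT-RNR2 differed by -0.30 ± 0.48 in DMSO and 0.04 ± 0.48 in Tg. All adjusted p-values of both rRNAs were 1.00 in these 4 limma comparisons and the groups overlapped in each. For MT-RNR1 the 2 replicate numbers went opposite ways in 4 of 4 comparisons. Both rRNAs normally carry at most a very short tail. RN7SL2, an RNA encoded in the nucleus and without a poly(A) tail, was at 423 RPKM in DD Tg replicate 2 and 52122 RPKM in WT DMSO replicate 2. It was 1 of 12 such RNAs listed; 6 of these were at 0 in all 16 libraries, and the 11 other than RN7SL2 summed to only 4.22 to 80.4 RPKM in RNA-Seq, so the list says little about the class as a whole. The part of RN7SL2 in the rRNA differences was not tested.

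Among the mRNAs, levels per length in RNA-Seq spanned from the cytochrome c oxidase subunits down to MT-ATP8. MT-CO1, MT-CO2 and MT-CO3, the 3 mitochondrial subunits of complex IV, were the 3 highest mRNAs in 6 of 8 RNA-Seq libraries and in 4 of 8 Subunit-Seq libraries, and MT-CO2 was among the highest 3 in 16 of 16. MT-ATP6, the proton channel subunit of the ATP synthase, took a place among the highest 3 in 6 of 16 libraries and ranked between 2 and 4 in all of them. Then followed MT-ND4 (ranks 5 to 8) and MT-CYB, the cytochrome b of complex III (ranks 5 to 8), and MT-ND1 (ranks 6 to 8). MT-ND5, the largest of the mRNAs, ranked 10 to 12; it encodes a proton-pumping subunit of complex I, as do MT-ND2 and MT-ND4. Neighbouring ranks from MT-ND4 to MT-ND2 overlapped in their ranges.

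MT-ATP8 was the lowest mRNA in 16 of 16 libraries, at 5.95 to 42.5 RPKM in RNA-Seq, where the other 12 mRNAs ran from 87.8 to 6181 RPKM. It is the shortest gene of the 13, with 207 bases, of which 46 are shared with MT-ATP6, and 0 to 58 reads were counted for it in a library. MT-ND4L (297 bases) and MT-ND4 share 7 bases. The authors' handling of reads in shared bases is not given in the sources used here, so the levels of MT-ATP8 and MT-ND4L are uncertain. MT-ND6 (525 bases) is the one mRNA read from the other strand, and the strand setting of the counting is not given either.

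**Figure D2:**
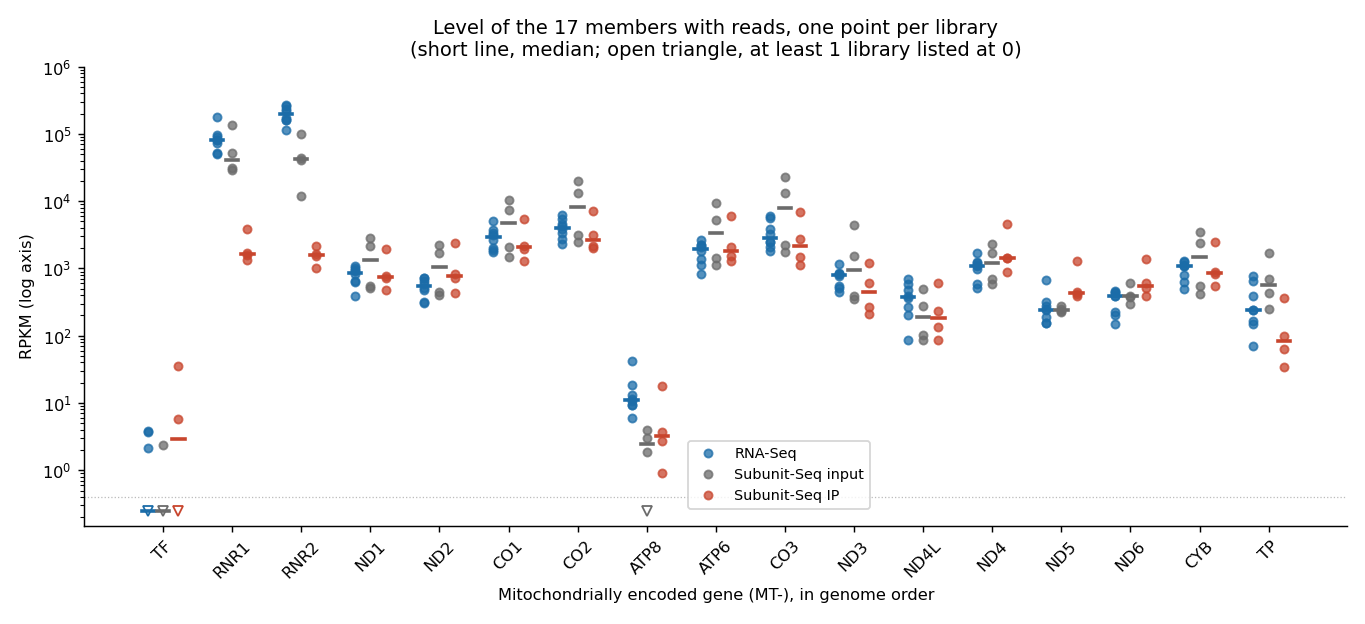
RPKM (log axis) of the 17 mitochondrially encoded genes with reads, in genome order, with 1 point per library for RNA-Seq (blue, 8 libraries), Subunit-Seq input (grey, 4) and Subunit-Seq IP (red, 4). Short lines are medians, and an open triangle marks a gene listed at 0 in at least 1 library. The 2 rRNAs lie highest in RNA-Seq and come down into the range of the mRNAs in the IPs, and ATP8 and TF lie lowest.

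Tg against DMSO in WT cells was the first comparison of the mRNAs, and it asks how ER stress moves them. The groups did not overlap for 8 of 13 mRNAs, all with both Tg libraries above both DMSO libraries, where 6.55% of the 9637 genes tested did so. Of complex I these were MT-ND1, MT-ND2, MT-ND4L and MT-ND4. MT-ND4 (bases 10760 to 12137) had 511 and 596 RPKM in DMSO and 976 and 1118 in Tg, means of 554 ± 60.5 and 1047 ± 100.5 (SD, n = 2). Its log2 difference of 0.92 ± 0.72 was the largest of the 13. MT-ND2 (bases 4470 to 5511) had 312 and 314 RPKM in DMSO and 483 and 509 in Tg.

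MT-CYB (bases 14747 to 15887), the only mitochondrial subunit of complex III, had 492 and 623 RPKM in WT DMSO and 797 and 1278 in WT Tg, a log2 difference of 0.86 ± 0.72. Of complex IV, MT-CO2 (bases 7586 to 8269) had 2305 and 3333 RPKM in DMSO and 3800.1 and 6181 in Tg. MT-CO3 (bases 9207 to 9990) had 1802 and 2468 in DMSO and 2501 and 5958 in Tg, with its 2 Tg libraries far apart. MT-CO1 (bases 5904 to 7445), the catalytic core subunit, had 3119 and 1856 in DMSO and 3671 and 2649 in Tg, and its groups overlapped. MT-ATP6 (bases 8527 to 9207) had 839 and 1123 in DMSO and 1374 and 2204 in Tg. For the remaining mRNAs, MT-ND3, MT-ND5, MT-ND6 and MT-ATP8, the groups overlapped, with log2 differences of 0.15, 0.16, 0.62 and 0.25.

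None of these differences passed the limma test, which called 0 of 9637 genes (0%) and, at an unadjusted p under 0.05, 24 genes (0.249%) and no mRNA. The lowest unadjusted p of the 13 was 0.230 for MT-ND4, whose adjusted p was 1.00 (limma, Benjamini-Hochberg). Fitted with voom weights on the recovered reads, limma again called 0 genes. With the replicate number as a block it also called 0, with 67 genes (0.695%) and no mRNA at an unadjusted p under 0.05, and MT-ND4 was at 0.92 ± 0.65 (unadjusted p 0.188, limma). With that block and without DD Tg replicate 2, a fit added after seeing the data, 460 of 9495 genes (4.84%) and 5 of 13 mRNAs (MT-ATP6, MT-CO2, MT-CO3, MT-CYB and MT-ND4) had an unadjusted limma p under 0.05, and none was called. The median log2 difference of the 13 mRNAs was 0.67, beside 0.12 over all genes tested, and 13 of 13 lay above the all-gene median. Within replicate numbers, 11 of 13 were higher in Tg in both, against 38.1% of all genes. The 13 mRNAs share the same libraries, so counts of them, here and in the other comparisons, are not counts of independent observations. The median of the 13 stayed above the all-gene median in each of the 18 other settings tried, by 0.35 to 0.99.

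DD against WT cells in DMSO asks what the eIF3d substitutions do without stress. Here 9 of 13 mRNAs were higher in DD with no overlap of the groups, against 11.1% of all genes. MT-ATP8 was lower with no overlap, against 4.7%. It had 11.3 and 10.7 RPKM in WT and 9.44 and 5.95 in DD, a log2 difference of -0.50 ± 0.73. Only 10 to 58 reads were counted for MT-ATP8 in each of the 8 RNA-Seq libraries, so nothing is read from its separation. MT-ATP6 had 839 and 1123 RPKM in WT and 1838 and 2634 in DD, a log2 difference of 1.18 ± 0.71. MT-ND6 (bases 14149 to 14673) had 224 and 147 RPKM in WT and 436 and 469 in DD, a log2 difference of 1.31 ± 0.78 and the largest of the 13. Their 2 groups lay well apart in both.

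MT-ND4 had 1229 and 1187 RPKM in DD DMSO, against 511 and 596 in WT DMSO, a log2 difference of 1.13 ± 0.72. MT-CYB had 1073 and 1245 RPKM in DD DMSO, a log2 difference of 1.06 ± 0.72. MT-ND1, MT-ND2, MT-ND5, MT-CO2 and MT-CO3 were the other 5 with the DD libraries above the WT libraries, by 0.67 to 1.05 on the log2 scale. MT-CO1 and MT-ND3 overlapped between the groups. MT-ND4L was at 579 and 87.8 RPKM in the 2 DD DMSO libraries, which lay on either side of the 202 and 264 RPKM in WT.

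Again the limma test called 0 of 9637 genes (0%), 68 at an unadjusted p under 0.05 (0.706%), none of them an mRNA, and 0 with voom weights. The lowest unadjusted p of the 13 was 0.122 for MT-ND6. With the replicate block it was 0.0737, again for MT-ND6 in limma, with 227 genes (2.36%) and no mRNA under 0.05 unadjusted and 0 called. In the blocked fit that leaves out DD Tg replicate 2, MT-ND6 was again at 1.31. That fit called 3 genes, all lower in DD, and no member. The median log2 difference of the 13 mRNAs was 0.76, beside 0.13 over all genes tested, with 10 of 13 above the all-gene median. These 2 comparisons share the WT DMSO libraries, which were the lowest in mRNA share, so their values are not independent of each other. WT DMSO replicate 2 is also the library with 52122 RPKM of RN7SL2. Without it the median went from 0.67 to 0.90 for Tg against DMSO and from 0.76 to 0.95 for DD against WT, with all-gene medians of -0.09 and -0.04.

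In DD cells, Tg against DMSO left most mRNAs with overlapping groups. Both Tg libraries were higher for 2 of 13 mRNAs, MT-ATP8 and MT-ND3, against 8.59% of all genes. MT-ATP8 had 9.44 and 5.95 RPKM in DMSO and 13.3 and 42.5 in Tg, from 15 and 12 reads and 28 and 58 reads. MT-ND3 had 550.2 and 818 RPKM in DMSO and 1151 and 856 in Tg. The 2 replicate numbers went opposite ways for 11 of 13 mRNAs, as for MT-CO3, with 0.57 and -0.65, and MT-ND5, with -0.17 and 1.10 on the log2 scale.

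The median log2 difference of the 13 was 0.07 beside 0.02 over all genes, and limma called 0 of 9637 genes (0%; 25 at an unadjusted p under 0.05, or 0.259%, no mRNA among them; 0 with voom weights). With the replicate block 0 were called and 77 genes (0.799%) had an unadjusted limma p under 0.05, among them MT-ATP8, at 1.55 ± 0.60 (unadjusted p 0.0299). Without DD Tg replicate 2, the library with the highest rRNA share, the median was 0.04 beside 0.14 over all genes, and so below rather than above the all-gene median. It also turned below without DD DMSO replicate 1, at 0.08 beside 0.11.

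DD against WT cells in Tg gave 5 of 13 mRNAs with both DD libraries higher, all of complex I (MT-ND2, MT-ND3, MT-ND4L, MT-ND5 and MT-ND6), against 10.2% of all genes. MT-ND5 (bases 12337 to 14148) had 242 and 154 RPKM in WT and 247 and 671 in DD, a difference of 1.07 ± 0.82 that was 2.12 within replicate number 2 and 0.03 within number 1. The 3 mRNAs of complex IV overlapped. Their median log2 difference was -0.18, that of the 7 mRNAs of complex I was 0.59, and that of all 13 was 0.36, beside 0.05 over all genes. This order of the complexes rested on DD Tg replicate 2, without which the median was 0.55 for complex IV, 0.38 for complex I and 0.35 for all 13, beside 0.14. Without WT Tg replicate 2 the median of complex IV was 0.04, also above 0. No gene of 9637 (0%) was called by limma, 82 had an unadjusted p under 0.05 (0.851%), none of them an mRNA, and voom weights gave 0. With the replicate block 0 were called, and 254 (2.64%), no mRNA among them, had an unadjusted p under 0.05 in limma.

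The difference between the Tg effects of DD and WT cells was tested as an interaction. Its median over the 13 mRNAs was -0.72 beside -0.10 over all genes, and 4 of 13 lay above the all-gene median. The lowest value was -0.98 ± 0.97 for MT-CO2 and the highest 1.30 ± 1.03 for MT-ATP8. Limma called 0 of 9637 genes (0%), 21 at an unadjusted p under 0.05 (0.218%) and no mRNA among them, and 0 with voom weights. With the replicate block it again called 0, with 67 genes (0.695%) and no mRNA under 0.05 unadjusted, so that a difference between the genotypes in their response to Tg was not shown for any of the 13. Without DD Tg replicate 2 the median was -0.49 beside 0.02. The plot of differences within replicate numbers shows these 4 comparisons side by side.

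**Figure D3:**
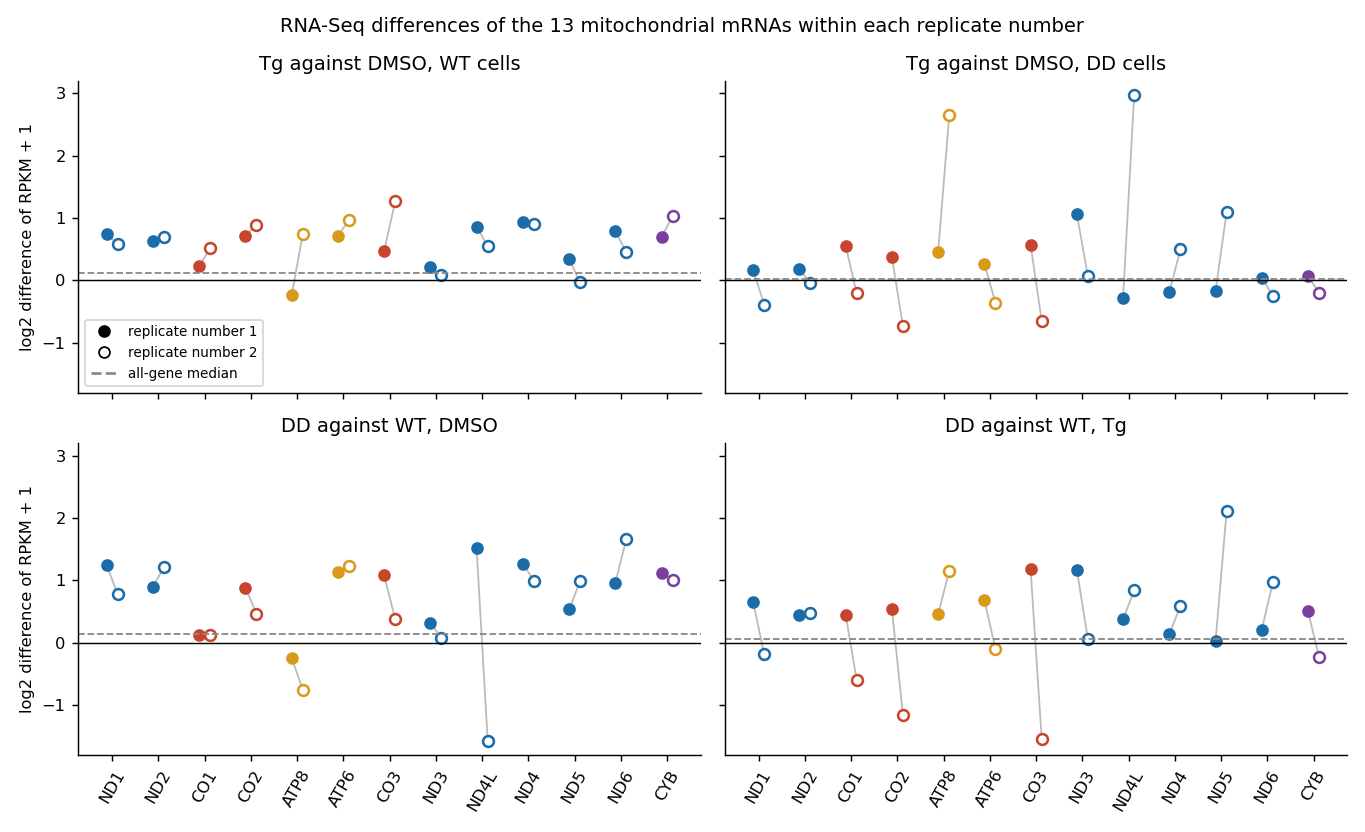
Log2 difference of RPKM + 1 for each of the 13 mitochondrial mRNAs in genome order, computed within replicate number 1 (filled) and 2 (open), for 4 RNA-Seq comparisons. Colours mark complex I (blue), III (purple), IV (red) and V (gold), and the dashed line is the median of all genes tested. In WT cells 11 of 13 mRNAs were higher in Tg in both replicate numbers, while in DD cells the 2 numbers went opposite ways for 11 of 13.

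MT-TP, the tRNA with reads in every library, showed no group apart from the others in RNA-Seq. Its log2 differences were 0.62 ± 1.20 for Tg in WT cells, -0.43 ± 1.20 for Tg in DD cells and 0.66 ± 1.20 for DD against WT in DMSO, all with an adjusted p of 1.00 in limma. DD replicate 1 was above DD replicate 2 in both treatments, with 655 against 151 RPKM in DMSO and 783 against 69.2 RPKM in Tg.

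The nuclear partners of the mRNAs were examined from 2 lists. Of 76 nuclear respiratory chain subunits, 70 passed the filter and 0 were called in any RNA-Seq comparison. Their median log2 differences were -0.14 for Tg in WT cells, -0.43 for Tg in DD cells, 0.20 for DD against WT without Tg and -0.05 with it. For the first of these, 14 of 70 lay above the all-gene median, where 13 of 13 mitochondrial mRNAs did. Of 52 nuclear genes for mitochondrial transcription, RNA processing and translation, 47 passed the filter and 0 were called, with medians of 0.12, 0.19, 0.21 and 0.27 in the same order. The most abundant of these, HSD17B10, a subunit of the nuclease that frees the starts of mitochondrial tRNAs, differed by -0.05 ± 1.00 (SE) for Tg in WT cells, and TUFM, the mitochondrial elongation factor, by 0.41 ± 0.96.

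In Subunit-Seq, IP against input compares the RNA recovered with the cap-binding domain of eIF3d with the starting RNA. No sample is an IP from cells without the tag, so RNA held by the domain and RNA carried over cannot be told apart. The rRNAs were the members furthest below their inputs. MT-RNR1 had 29129 and 51336 RPKM in DMSO and 136737 and 31243 RPKM in Tg in the inputs, and 1673 and 3886 RPKM in DMSO and 1602 and 1341 RPKM in Tg in the IPs. The input exceeded its IP 17.4 and 13.2 times in DMSO and 85.3 and 23.3 times in Tg. MT-RNR2 had 11964 and 99659 RPKM in DMSO and 44262 and 41258 RPKM in Tg in the inputs, and 1528 and 2143 RPKM in DMSO and 1646 and 1013 RPKM in Tg in the IPs. The input exceeded its IP 7.83 and 46.5 times in DMSO and 26.9 and 40.7 times in Tg. All 4 IP libraries lay below all 4 inputs for both rRNAs.

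The limma fit with the replicate number as a block, over 9813 genes, called 8 of the 16 members that passed the filter in DMSO and 5 of 16 in Tg. In DMSO 2 members rose, where 21.4% of all genes did, and 6 fell, where 1.75% did (23.2% in either direction). In Tg 0 rose, where 14.6% of all genes did, and 5 fell, where 1.62% did (16.2% in either direction). MT-RNR1 fell, with a log2 difference of -3.92 ± 0.25 in DMSO (adjusted p 2.67e-53) and -5.48 ± 0.25 in Tg (adjusted p 6.09e-105). MT-RNR2 fell, with a log2 difference of -4.25 ± 0.26 (adjusted p 3.51e-55) and -5.05 ± 0.26 (adjusted p 9.68e-79). The all-gene median was 0.96 in DMSO and 0.87 in Tg, above 0, while both rRNAs lay far below 0.

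These p-values use a spread read from a trend over all genes at the gene's mean level, since the fit estimated no gene-specific part. That spread ran from 0.246 to 0.604 over the 16 members. For 16 of 16 members the member's own residual SD was above it, 1.09 to 4.47 times. With each gene's own spread 0 members were called in either treatment. The calls also rest on the block: without it limma called 24 of 9813 genes (0.245%) in DMSO and 36 (0.367%) in Tg, and of the members MT-RNR1 and MT-RNR2 alone in each. Across genes, the replicate difference of the IP correlated with that of its input at 0.00200 in DMSO and 0.210 in Tg. Without input DMSO replicate 2, limma called 0 of 10424 genes in DMSO (1429 at an unadjusted p under 0.05), so the count of members went from 8 to 0, with adjusted p-values of 0.320 for MT-RNR1 and 0.314 for MT-RNR2. It was 5 without input DMSO replicate 1 and 4 without IP DMSO replicate 2 or input Tg replicate 2. The Tg count was 9 without IP Tg replicate 1 and 3 without IP Tg replicate 2 or any one of the 4 inputs. Both rRNAs kept their call in Tg without each of the 8 libraries in turn, and in DMSO in 14 of 18 other settings.

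RN7SL2 also differed between the input libraries, at 12054 and 204 RPKM in input DMSO and 106974 and 6682 RPKM in input Tg, against 415 to 640 RPKM in the 4 IPs. The other 11 RNAs of that list summed to at most 17.5 RPKM in a Subunit-Seq library. Input Tg replicate 1, which had the highest RN7SL2, also had the highest MT-RNR1. The part of RN7SL2 in the fall of the rRNAs was not tested. The ratio of MT-RNR2 to MT-RNR1 in RPKM was 0.411 and 1.94 in input DMSO and 0.324 and 1.32 in input Tg. It was 0.914 and 0.551 for the IPs under DMSO and 1.03 and 0.755 for those under Tg, so the 2 rRNAs did not stand in one proportion to each other.

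**Figure D4:**
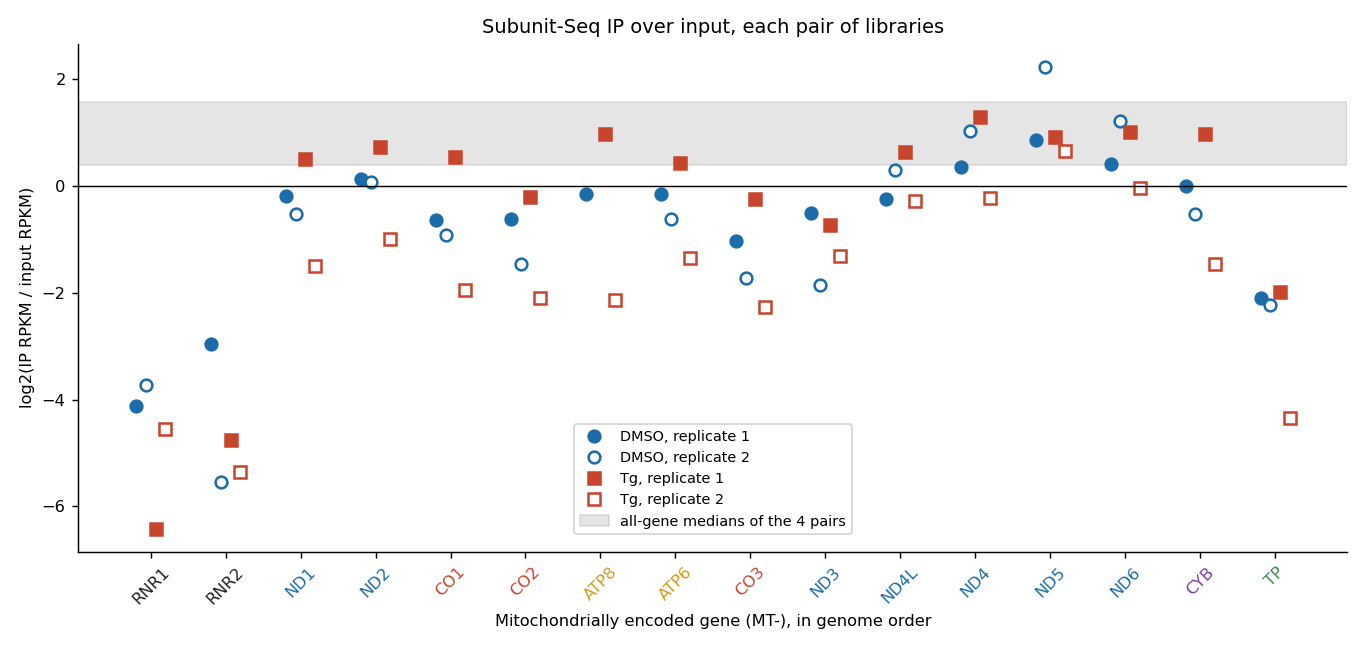
Log2 ratio of IP to input RPKM for 16 mitochondrially encoded genes in genome order, with 1 point for each pair of libraries of the same treatment and replicate number (blue circles, DMSO; red squares, Tg; filled, replicate 1; open, replicate 2). The grey band spans the all-gene medians of the 4 pairs, 0.38 to 1.57. These medians were taken on log2(RPKM + 1), while the points are ratios of RPKM with nothing added. RNR1, RNR2, CO2, CO3, ND3 and TP lie below 0 in all 4 pairs and ND5 above 0 in all 4. ATP8 has no point for DMSO replicate 2, whose input had 0 reads.

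The mRNAs stood nearer to their inputs than the rRNAs. The median log2 difference of the 13 was -0.26 in DMSO and -0.34 in Tg, which lay below the all-gene medians of 0.96 and 0.87. In DMSO 11 of 13 were below the all-gene median and in Tg 13 of 13 were. Under median-ratio scaling, which takes up the shift of all genes, the medians were -1.76 and -1.50, with all-gene medians of -0.11 and -0.07. Without input DMSO replicate 2 the DMSO median was 0.28 beside 0.43, still below. Over genes with a mean of at least 5 RPKM in the inputs, the all-gene medians were 0.61 in DMSO and 0.55 in Tg. The nuclear respiratory chain subunits had medians of -0.56 and -0.43, so a place below all genes was not particular to the mitochondrial mRNAs.

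Of complex IV, MT-CO3 had 2258 and 23228 RPKM in DMSO and 1784 and 13312 RPKM in Tg in the inputs, and 1109.6 and 7004 RPKM in DMSO and 1495 and 2769 RPKM in Tg in the IPs. Replicate 2 was the higher of the 2 in all 4 groups, and the IP was below its own input in 4 of 4 pairs, as 9.97% of all genes were in both DMSO pairs and 9.52% in both Tg pairs. MT-CO3 fell, with a log2 difference of -1.38 ± 0.31 in DMSO (limma adjusted p 7.46e-04) and -1.26 ± 0.31 in Tg (adjusted p 0.00174). MT-CO2 had 3112 and 19930.5 RPKM in DMSO and 2502 and 13279.9 RPKM in Tg in the inputs, and 2028 and 7184 RPKM in DMSO and 2156 and 3105 RPKM in Tg in the IPs. It fell, with a log2 difference of -1.04 ± 0.30 in DMSO (limma adjusted p 0.00760) and -1.16 ± 0.30 in Tg (adjusted p 0.00275). MT-CO1 did not pass, at -0.78 ± 0.33 in DMSO (adjusted p 0.0613, limma) and -0.70 ± 0.33 in Tg (adjusted p 0.109). Of these calls, MT-CO2 kept its side of the threshold in 6 of 18 other settings in DMSO and 5 of 18 in Tg, and MT-CO3 in 11 and 6 of 18. Without input DMSO replicate 2 the DMSO differences were -0.50 for MT-CO2 and -0.77 for MT-CO3, and neither passed.

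Of complex I, MT-ND5 was the only mRNA above its input in 4 of 4 pairs. It had 227 and 272 RPKM in DMSO and 232 and 249 RPKM in Tg in the inputs, and 409.9 and 1269.9 RPKM in DMSO and 440.1 and 389 RPKM in Tg in the IPs. The 4 IP libraries lay above the 4 inputs. The IPs lay above the inputs without overlap for 56% of all genes in DMSO and 64.7% in Tg, and in both pairs for 64% and 72.2%. MT-ND5 rose in DMSO, with 1.53 ± 0.51 (limma adjusted p 0.0212) and was at 0.78 ± 0.51 in Tg (adjusted p 0.251). Beside the all-gene median these were 0.57 and -0.09, and under median-ratio scaling the DMSO difference was 0.04, with an adjusted p of 0.977 in limma. MT-ND5 kept its call in 7 of 18 other settings, and without input DMSO replicate 2 it was at 1.40 (adjusted p 0.394, limma).

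MT-ND3 (bases 10059 to 10404) went the other way within complex I. Its IP was below its input in 4 of 4 pairs, by -0.52 and -1.86 in DMSO and -0.74 and -1.32 in Tg on the log2 scale. It fell in DMSO, with -1.19 ± 0.46 (limma adjusted p 0.0434), a call kept in 4 of 18 other settings and lost without input DMSO replicate 2, at -0.41, and was at -1.03 ± 0.46 in Tg (adjusted p 0.0926). MT-ND4 and MT-ND6 were at 0.68 ± 0.39 and 0.81 ± 0.48 in DMSO and did not pass. Both were above 0 as deposited and below 0 under median-ratio scaling, as all but MT-ATP8 and MT-ND5 were in DMSO. In Tg the same scaling put MT-ND4, MT-ND5 and MT-ND6 below 0.

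MT-ATP8 was called in DMSO, at 2.05 ± 0.60 (limma adjusted p 0.0101), on very few reads, a call kept in 6 of the 17 other settings that gave a value. Without input DMSO replicate 2, which had no read, the difference was 0.75 and did not pass. Input DMSO had 5 and 0 reads for it and IP DMSO 6 and 54, and its groups overlapped. In Tg the inputs had 2 and 10 reads and the IPs 13 and 3, and it was at -0.34 ± 0.60 (adjusted p 0.691, limma). Its neighbour MT-ATP6 was at -0.39 ± 0.34 in DMSO and -0.46 ± 0.34 in Tg and did not pass. MT-ND1, MT-ND2, MT-ND4L and MT-CYB did not pass either, with log2 differences of -0.36, 0.10, 0.03 and -0.26 in DMSO.

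The share of each mRNA among the mitochondrial mRNA reads of its own library does not depend on how libraries are scaled, and it was compared within the 4 pairs for the 12 mRNAs with reads in all of them. Of these, 7 were higher in the IP in 4 of 4 pairs: MT-ND1, MT-ND2, MT-ND4L, MT-ND4, MT-ND5 and MT-ND6 of complex I, and MT-CYB of complex III. MT-CO2 and MT-CO3 were lower in 4 of 4, and MT-CO1, MT-ATP6 and MT-ND3 were mixed. Shares add up to a whole, so that a lower share of some mRNAs raises the others, and 4 pairs from 8 libraries allow no p under 0.05 in an exact test of signs.

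MT-ND4 made up 8.61% and 4.58% in DMSO and 8.93% and 5.23% in Tg of the mitochondrial mRNA reads in the inputs. In the IPs it made up 13.7% and 15.9% in DMSO and 15.8% and 13.8% in Tg, and the IP libraries lay above all inputs. MT-ND5 made up 3.63% and 0.716% in DMSO and 4.60% and 1.00% in Tg in the inputs. In the IPs it made up 8.21% and 5.73% in DMSO and 6.31% and 4.87% in Tg, again above all inputs, and the inputs of replicate 2 were the lowest. MT-CO2 made up 18.8% and 19.8% in DMSO and 18.7% and 20.3% in Tg in the inputs and 15.3% and 12.2% in DMSO and 11.7% and 14.7% in Tg in the IPs, which lay below all inputs. MT-CO3 made up 15.6% and 26.4% in DMSO and 15.3% and 23.3% in Tg in the inputs and 9.62% and 13.7% in DMSO and 9.27% and 15.0% in Tg in the IPs, with the lowest input and the highest IP at 15.3% and 15.0%.

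By complex, the 7 mRNAs of complex I made up 23.7% and 15.5% of mitochondrial mRNA reads for the inputs under DMSO and 27.1% and 16.6% under Tg, against 36.2% and 35.7% for the IPs under DMSO and 36.8% and 33.1% under Tg. The 4 IP libraries were close to each other while the inputs were not. The 3 mRNAs of complex IV made up 62.3% and 69.4% for the inputs under DMSO and 59.2% and 69.4% under Tg, against 47.3% and 46.9% for the IPs under DMSO and 47.5% and 50.4% under Tg. In RNA-Seq complex I made up 18.8% to 39.5% and complex IV 42.4% to 70.9%. The 39.5% and the 42.4% were both those of DD Tg replicate 2, and the nearest library to it was DD DMSO replicate 2, at 27.5% and 53.0%. Across the 12 mRNAs, the mean log2 ratio of the IP to the input share had a Pearson r of 0.31 and a Spearman rho of 0.24 with log2 gene length, a description over genes that share the same libraries.

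**Figure D5:**
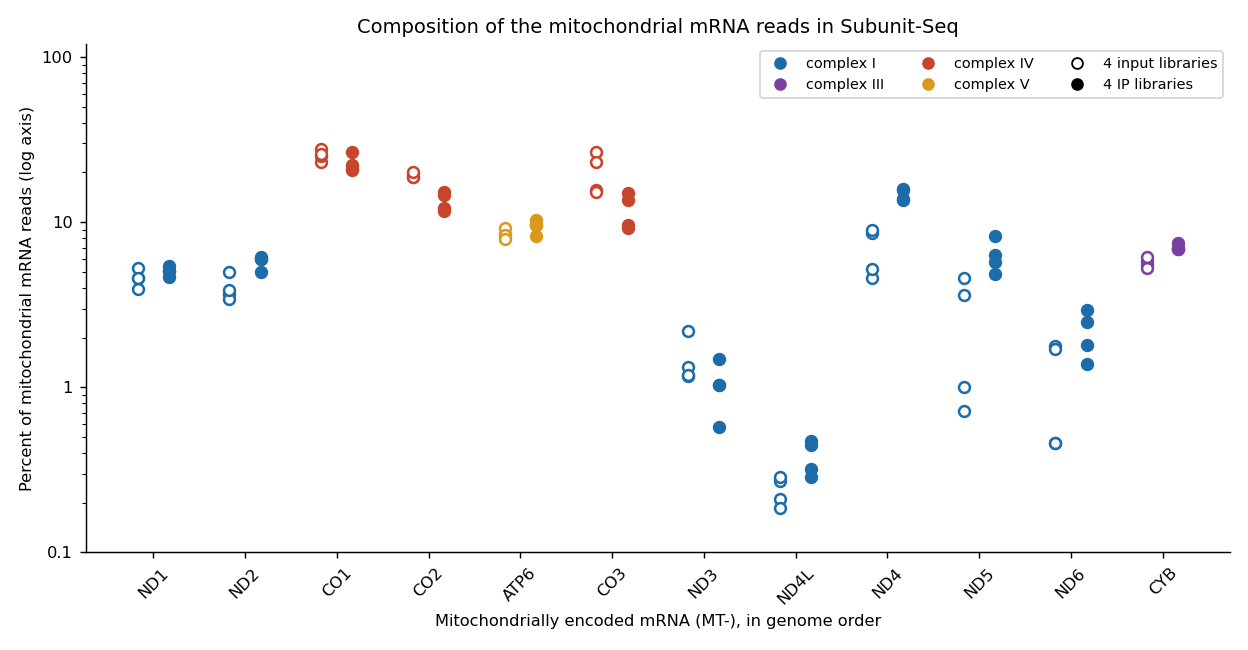
Percent of the mitochondrial mRNA reads of a library (log axis) that fell on each of 12 mRNAs in genome order, for the 4 Subunit-Seq inputs (open) and the 4 IPs (filled), coloured by respiratory chain complex. ND2, ND4L, ND4, ND5 and CYB lie higher in all IPs than in any input, ND2 and ND4L by very little (for ND2, a lowest IP of 5.03% and a highest input of 5.00%), and CO2 and CO3 lower. MT-ATP8, with 0 to 54 reads in these libraries, is left out.

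MT-TP was the one tRNA that could be tested, with all IPs below all inputs within each treatment. It had 432 and 1721 RPKM in DMSO and 254 and 698 RPKM in Tg in the inputs, and 101 and 368 RPKM in DMSO and 63.7 and 34.4 RPKM in Tg in the IPs. It fell, with a log2 difference of -2.16 ± 0.55 in DMSO (limma adjusted p 0.00270) and -3.14 ± 0.55 in Tg (adjusted p 1.33e-06). Groups did not overlap and were lower in the IP for 6.76% of genes in DMSO and 6.35% in Tg. The calls held in 11 and 12 of 18 other settings, and without input DMSO replicate 2 the DMSO difference was -1.57 (adjusted p 0.434, limma).

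The treatments were then compared within Subunit-Seq. Of the 16 members, 1 differed between Tg and DMSO in its IP over input ratio, MT-RNR1, which was lower in Tg by -1.56 ± 0.35 on the log2 scale (limma adjusted p 0.0150), where 6 of 9813 genes (0.0611%) were called. The 4 pairs gave -4.12 and -3.72 in DMSO and -6.42 and -4.54 in Tg, so the value for Tg replicate 1 stood furthest out, and in that pair it was the input that was high, at 136737 RPKM against 1602 RPKM in the IP. MT-RNR2 differed by -0.79 ± 0.37 (adjusted p 1.00, limma) and its pairs overlapped between the treatments. The call was lost, and the difference was -0.69 without IP DMSO replicate 2, -0.95 and -2.16 without input DMSO replicate 1 and 2, and -0.19 without input Tg replicate 1. That last value lay above its all-gene median of -0.24, so relative to other genes the direction turned. The count was 2 without IP Tg replicate 1. The call on MT-RNR1 was kept in 4 of 18 other settings, all of them with 1 library left out.

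For input Tg against input DMSO, 0 of 16 members were called, against 0.051% of genes by the limma fit (323 genes, or 3.29%, at an unadjusted p under 0.05). MT-RNR1 had the lowest unadjusted p, 0.00209, at 0.76 ± 0.25, with 2.23 in replicate number 1 and -0.72 in number 2. The median of the 13 mRNAs was -0.45 beside 0.15 over all genes, and -0.04 beside -0.36 without input DMSO replicate 2, so that its place relative to other genes turned with that library. Without either IP Tg library or input Tg replicate 2, 1 member was called.

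For IP Tg against IP DMSO, 0 of 16 members were called as well, against 0.0713% of genes, where 165 (1.68%) had an unadjusted limma p under 0.05, among them MT-RNR1 (0.00118), MT-TP (2.20e-04) and MT-ATP8 (0.0157). Voom weights gave 0 genes in each of these 3 comparisons of treatments. Both Tg libraries were lower for 2 members, MT-RNR1 and MT-TP, against 7.48% of genes. The median of the 13 mRNAs was -0.49 beside 0.07, and the 2 replicate numbers went opposite ways for 12 of 13, up in number 1 and down in number 2. IP DMSO replicate 2 was the library apart, with 13 of 13 mRNAs above IP DMSO replicate 1, by a median of 2.16 on the log2 scale. Without IP Tg replicate 1 the count of called members was 7, without IP DMSO replicate 1 it was 1, and without IP Tg replicate 2 the median of the 13 was 0.36 beside -0.09.

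Between the 2 libraries of a group, the mRNAs differed mostly in one direction in both inputs and in IP DMSO. In input DMSO all 12 mRNAs with reads in both libraries were higher in replicate 2, by a median of 2.45 on the log2 scale, and in input Tg 13 of 13 were, by 2.09. In IP DMSO 13 of 13 were, by 2.16, and in IP Tg 9 of 13, by a median of 0.10. In RNA-Seq 8 of 13 were higher in replicate 2 in DD DMSO, 5 in DD Tg, 9 in WT DMSO and 10 in WT Tg, and the medians ran from -0.10 in DD Tg to 0.54 in WT Tg.

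Nuclear genes for mitochondrial proteins gave the background of IP over input. Of the nuclear respiratory chain subunits, 72 of 76 passed the filter, 3 rose and 4 fell in DMSO, and 0 rose and 1 fell in Tg, with medians of -0.56 and -0.43. The 3 are 4.17% and the 4 are 5.56% of the 72, beside 21.4% and 1.75% of all genes. Among those that rose in DMSO was SDHA, of complex II, by 1.77 ± 0.66 (limma adjusted p 0.0392), and NDUFB11 was the one that fell in Tg, by 1.71 ± 0.53 (adjusted p 0.0164). Of the nuclear genes for mitochondrial gene expression, 46 of 52 passed, 9 rose and 0 fell in DMSO, and 2 rose and 0 fell in Tg, with medians of 1.09 and 0.76. The 9 are 19.6% and the 2 are 4.35% of the 46, near or under the 21.4% and 14.6% of all genes that rose, so nothing is read from these counts. The 2 largest called differences of that list in DMSO were those of FASTKD5, a processing factor for mitochondrial mRNAs, at 2.64 ± 0.62 in DMSO (limma adjusted p 0.00126), and TWNK, the mitochondrial DNA helicase, at 2.10 ± 0.66 (adjusted p 0.0145). These DMSO calls too were lost without input DMSO replicate 2, where no gene was called.

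Of the 404 nuclear copies, 84 were above 0 in some library and 16 had a mean of at least 1 RPKM. Their reads came to 0.125% to 0.327% of the members' reads in RNA-Seq, 0.252% to 1.13% in the inputs and 2.96% to 5.54% in the IPs. The highest were MTATP6P1, at 99.3 to 391 RPKM in RNA-Seq, MTCO1P12, at 88.4 to 362 RPKM, and MTCO3P12, at 34.5 to 358 RPKM. Reads that match both a copy and a mitochondrial gene could be counted in either, and the rule used is not given in the sources used here.

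The deposited lists of m6A-eCLIP sites, 1 per group without replicates, placed 599 of 3000 sites on chromosome MT in WT DMSO, 490 of 1572 in WT Tg, 513 of 1796 in DD DMSO and 694 of 5050 in DD Tg. In the same order, 457, 435, 442 and 452 of these lay in the 2 rRNA genes and 128, 46, 61 and 223 in the mRNA genes, with strand not compared.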

How the data were processed

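The authors deposited RPKM per gene and library in 3 tables (1 of RNA-Seq, 1 for each replicate of Subunit-Seq), and the submitters' processing notes name cutadapt, STAR, BWA and DESeq2 without versions, and build GRCh38. Per the labels' protocols, RNA-Seq used a poly(A) kit and Subunit-Seq a directional kit. Whole reads were recovered from the RPKM steps: 26179 of 26179 genes above 0 in at least 3 libraries came out whole, within 0.02 reads. For genes other than the members the length was itself searched to give whole reads, so this count alone does not check their reads. Differences were fitted with limma 3.58.1 (R 4.3.3) on log2(RPKM + 1), which understates changes of low genes, over the 9637 genes whose mean over the RNA-Seq libraries reached 1 RPKM, or the 9813 whose mean over the inputs did, with Benjamini-Hochberg adjustment at 0.05. For Subunit-Seq the replicate number was a block, since those tables were deposited per replicate. The main fits let the spread follow a trend with the mean level of a gene. In Subunit-Seq the spread came from that trend alone. The replicate differences of 6 pairs of groups correlated at 0.134 to 0.864 across genes in RNA-Seq and 0.00200 to 0.510 in Subunit-Seq; the labels do not say what a number shares. RNA-Seq standard errors and p-values are from the fit without the block unless the block is named. Tables were not mixed within a test, except that both Subunit-Seq tables entered 1 fit with that block. Shares, ratios and figures were made with Python 3.11.15, pandas 2.3.3 and scipy 1.17.1. All 37 genes are accounted for, and those named in full are the ones with reads, the calls, and those with groups that do not overlap. Nuclear list genes are named where called or most abundant, apart from 1 that is not reported here. Positions are from RefSeq GRCh38.p14. The members and the lists were chosen with earlier results of these data known. The m6A-eCLIP libraries were used only as deposited site lists.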

Additional observations from a re-analysis of the deposited data

Results flagged for a closer look

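The IP over input ratio of MT-RNR1 in Subunit-Seq differed between the treatments by -1.56 on the log2 scale, a difference that was itself tested as an interaction in limma. Over its 18 other settings it kept its sign and passed the threshold in 4, each with 1 library left out. Without input Tg replicate 1 the difference was -0.19, above its all-gene median of -0.24, so relative to other genes its direction turned. RN7SL2 was highest in that library, and its part in the difference was not tested.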

How the results depend on the processing

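The count of called members was 0 in all 5 RNA-Seq comparisons under each of 18 other settings, the replicate block included (0 with it). For IP against input in DMSO the 8 calls became 0 with no filter on low values, 5 at a mean of 5 RPKM, 4 after rescaling outside the 37 members, 5 after rescaling outside the 2 rRNAs, 0 under median-ratio scaling, 2 with voom on recovered reads, 2 with no replicate block, 0 with each gene's own spread, and 0 to 9 without 1 library. For Tg the 5 calls became 3 at a pseudocount of 0.1, 0 with no filter, 3 after rescaling outside the 37 members, 1 under median-ratio scaling, 2 with voom, 2 with no replicate block, 0 with own spread, and 3 to 9 without 1 library. The single call on the difference between them became 0 under all 10 other settings that keep every library, no replicate block included, and 0 to 2 without 1 library. Input Tg against DMSO gave 0 to 1, and IP Tg against DMSO 0 to 7, without 1 library. Calls over all genes fell in several of these settings too. For IP against input, the main fit had 2100 genes higher and 172 lower of 9813 in DMSO, and 1432 and 159 in Tg. With no filter 0 of 31093 genes were called in either treatment. Under median-ratio scaling 11 of 11037 genes were higher and 8 lower in DMSO, and 27 and 39 in Tg. The drops in these settings were thus not particular to the members. No called value changed sign. The settings that rescale outside the 2 rRNAs, use each gene's own spread, or join the replicate block to leaving out DD Tg replicate 2 were added after seeing the data. The last was the one RNA-Seq setting that called any gene, 3 of 9495, lower in DD than WT cells in DMSO. With 2 libraries a group, a left-out library leaves 1, assumed to vary like the other groups. The cause of these changes was not tested.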
